A study of Arabidopsis thaliana with 6 samples.

Results

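The genes described here encode proteins of the cytosolic ribosome of Arabidopsis thaliana. They are 48 listed loci, chosen by name with paralogs kept apart, out of 18220 genes to which poly(A) site clusters could be assigned. Of the 48, 19 encode proteins of the small (40S) subunit and 29 encode proteins of the large (60S) subunit. They fall into 32 protein families, and 14 of these families have more than 1 listed paralog, 12 with 2 and 2 with 3. A further 178 loci of cytosolic ribosomal proteins were kept as a separate list for comparison. The reference table gives a symbol for 25 of the 48 genes, so the other 23 are named by locus. Family names follow the general nomenclature of plant ribosomal proteins.

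The data are 3'READS+ libraries, in which each read marks the end of 1 polyadenylated transcript. RNA came from whole wild-type seedlings of the Columbia ecotype (Col 0), raised for 1 to 2 weeks at 22 °C in constant white light and then kept for 48 h without light. In the group called Light, 3 libraries came from seedlings returned to light for 6 h, and in the group called Dark, 3 libraries came from seedlings left in darkness for those 6 h. Both groups thus share the long dark period, and no group that stayed in light throughout is included. The labels do not say whether the 3 libraries of a group came from separately grown seedlings, so the p-values measure the spread between these libraries, which may be technical. Library totals ran from 13.20 to 14.53 M reads, and 97.1% of reads were assigned to nuclear protein-coding genes. Replicates differed by more than sampling noise, with a chi-square per degree of freedom between 6.48 and 28.7, highest for Dark replicates 1 and 2.

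A ribosome holds 1 copy of most of its proteins, and each is encoded in Arabidopsis by a small family of closely related genes at separate loci. Making ribosomes is costly for a growing cell, and ribosomal protein genes are known to be highly expressed in dividing and expanding tissue. Loss of a single paralog often gives a mild growth phenotype, such as the narrow pointed first leaves of several ribosomal protein mutants, whereas loss of others is lethal in the embryo.

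The listed genes as a group took up a larger part of the reads in Light. They held 3.54, 3.69 and 3.59% of the assigned reads in the Light libraries and 1.81, 1.44 and 1.54% in the Dark libraries. Every Light library lay above every Dark library, and the means, 3.61% ± 0.0779 and 1.59% ± 0.193 (SD, n = 3 each), differed 2.26-fold. The exact two-sided permutation test over the 20 arrangements of the 6 libraries gave p = 0.1, the smallest value this design allows. Genes of the small subunit went from 0.612% ± 0.0818 of the reads in Dark to 1.15% ± 0.0338 in Light, and genes of the large subunit from 0.982% ± 0.111 to 2.46% ± 0.0601. In whole seedlings, a change in the number of cells of a type and a change in the RNA of each cell cannot be told apart. The summed level of listed markers of dividing cells was also higher in every Light library, and its values stand with those of the other cell type markers at the end.

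Gene by gene, all 48 passed the filter on low counts, with 533 to 195741 reads each over the 6 libraries and a median of 33577. Levels are given as CPM, reads per M reads of the library after TMM scaling between libraries. Because 1 read stands for 1 transcript end, these levels do not scale with transcript length. By edgeR's quasi-likelihood test at an adjusted p below 0.05, 35 of the 48 were higher in Light and 4 lower, and 9 did not pass. Over all 16773 genes tested, 37.4% were higher, 35.6% were lower and 72.9% changed in either direction, so the members stand beside a background in which most genes moved. The median log2 change was 0.98 over the members and 0.04 over all genes tested. All 3 Light libraries lay above all 3 Dark libraries for 35 members and below them for 7, against 39.1% and 36.6% of all genes tested. Small-subunit genes counted 13 higher and 3 lower of 19, with a median log2 change of 0.88, and large-subunit genes 22 higher and 1 lower of 29, with a median of 1.18. Without Light replicate 1 a single member, AT5G35530, was still called lower, since the calls on AT5G23900, RPS18C and AT2G41840 were lost, while 34 remained higher.

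The scaling bears on the sign of the smallest changes. TMM factors were 1.15 to 1.18 for the Light and 0.813 to 0.884 for the Dark libraries. With library totals alone, the median log2 change of all genes tested moved up by 0.45, to 0.50, and 43 members were higher and 0 lower (also 0 lower at an unadjusted p below 0.05); 8625 of all genes were then called higher and 4012 lower, against 6267 and 5965 with TMM. Shares of reads within a family or within a gene, given further down, do not depend on this scaling.

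**Figure D1:**
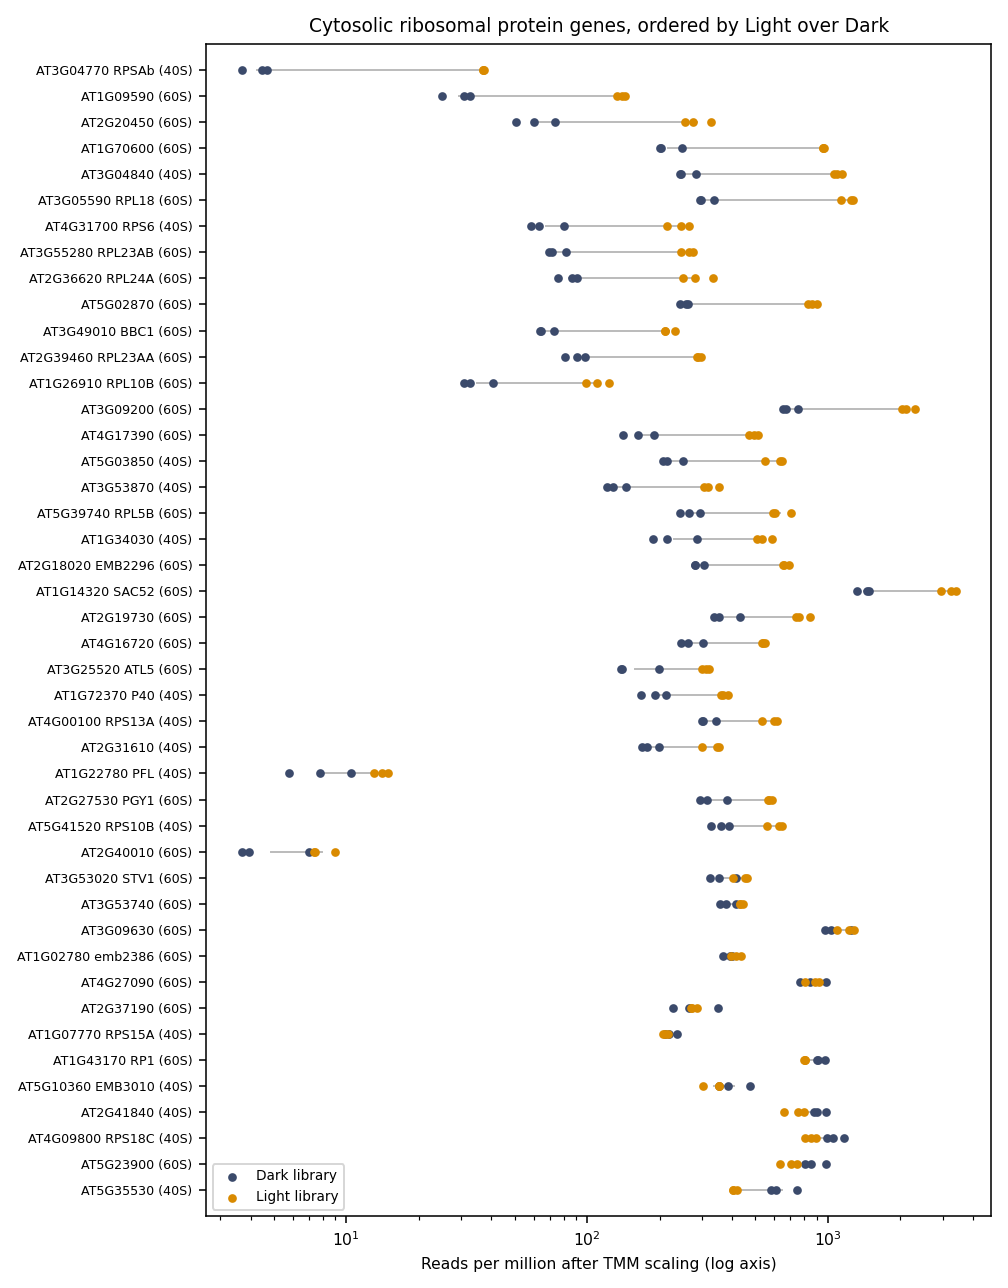
Level of 44 of the 48 ribosomal protein genes in each library, in CPM after TMM scaling on a log axis; orange points are the 3 Light libraries, dark blue points the 3 Dark libraries, and grey lines join the group means. Genes are ordered by their change, from RPSAb, 8.63-fold higher in Light, at the top to AT5G35530, 1.57-fold lower, at the bottom; with library totals in place of TMM no member was called lower.

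Among the small-subunit genes, the widest change of all members was that of RPSAb (AT3G04770), a minor paralog of the RPSA family, whose protein is related to the animal laminin receptor precursor and is needed for making the 40S subunit. It read 36.9, 37.4 and 36.8 CPM in Light and 4.47, 3.67 and 4.68 CPM in Dark, with no overlap and a tight Light group. The difference was 8.63-fold (log2 3.11 ± 0.11 SE, edgeR adjusted p = 2.86e-10). The main RPSA paralog P40 (AT1G72370) read 359, 385 and 368 CPM in Light and 213, 192 and 168 CPM in Dark, 1.94-fold higher in Light (adjusted p = 2.84e-06). Both paralogs were thus higher, the rare one by the larger factor.

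AT3G04840, an RPS3a gene whose protein lies at the mRNA exit side of the 40S subunit, read 1097, 1149 and 1056 CPM in Light and 283, 243 and 246 CPM in Dark. This 4.28-fold difference (adjusted p = 8.93e-10) was the next largest of the small-subunit genes, and the groups lay far apart.

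The RPS6 family encodes the ribosomal protein that the S6 kinase of the TOR pathway phosphorylates. The paralog listed as RPS6 (AT4G31700) read 265, 246 and 215 CPM in Light and 80.4, 58.5 and 63 CPM in Dark, a 3.60-fold rise (adjusted p = 2.23e-08). The other, EMB3010 (AT5G10360), an embryo-essential gene also known as RPS6B, read 355, 352 and 302 CPM in Light and 477, 355 and 385 CPM in Dark and did not pass (log2 -0.27 ± 0.15, adjusted p = 0.0638), although it was called lower with DESeq2 and without Dark replicate 2. EMB3010 was the stronger gene in every library, so the paralog that was lower in level was the one that rose.

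The 3 genes for RPS3, a protein at the mRNA entry channel, went different ways. AT3G53870 read 318, 355 and 307 CPM in Light and 128, 145 and 121 CPM in Dark, 2.49-fold higher (adjusted p = 1.08e-07). AT2G31610 read 299.7, 355 and 346 CPM in Light and 199, 169 and 177 CPM in Dark, 1.84-fold higher (adjusted p = 6.84e-06). AT5G35530 read 405, 404 and 420.2 CPM in Light and 745, 580.5 and 609.8 CPM in Dark, 1.57-fold lower (log2 -0.66 ± 0.11, adjusted p = 1.39e-04), the largest fall among the members, which with library totals kept its sign (log2 -0.21) and no longer passed (adjusted p = 0.141). The gene with the highest Dark level of the 3 was the one that fell, and the other two rose.

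For RPS18, a protein at the head of the 40S subunit, AT1G34030 read 532, 586 and 509 CPM in Light and 287, 188 and 215 CPM in Dark, 2.36-fold higher (adjusted p = 2.58e-06). PFL (AT1G22780), the RPS18A gene named for the pointed first leaves of its mutant, was expressed far below its paralogs, at 14.9, 14 and 13.1 CPM in Light and 10.4, 5.77 and 7.80 CPM in Dark, and was 1.75-fold higher (adjusted p = 0.00175). RPS18C (AT4G09800), the strongest of the 3, read 808, 896 and 851 CPM in Light and 1173, 992 and 1047 CPM in Dark and was 1.26-fold lower (log2 -0.33, adjusted p = 0.0134), although this was lost without Light replicate 1 (log2 -0.29) and turned to 0.12 with library totals. The RPS18 paralog with most reads was the one that did not rise.

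AT2G41840, an RPS2 gene, read 659.8, 749 and 796 CPM in Light and 981, 873 and 903 CPM in Dark, 1.25-fold lower (log2 -0.32, adjusted p = 0.0167), which was lost without Light replicate 1 (log2 -0.25) and turned to 0.13 with library totals. RPS15A (AT1G07770) read 217, 209.8 and 207 CPM in Light and 236, 220.0 and 212 CPM in Dark, overlapping between the groups (adjusted p = 0.505). It was called higher by edgeR with library totals (log2 0.38, adjusted p = 0.00384). RPS10B (AT5G41520), known from a mutant with altered shoot architecture, read 625, 646 and 557 CPM in Light and 389, 359 and 327 CPM in Dark, 1.70-fold higher (adjusted p = 2.19e-05). Of the other small-subunit members, RPS13A (AT4G00100) and the RPS28 gene AT5G03850 were 1.85-fold and 2.71-fold higher.

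The large-subunit genes included the most abundant members. SAC52 (AT1G14320), the main RPL10 gene, whose protein in yeast enters the 60S subunit late and is needed for the subunits to join, read 2966, 3393 and 3236 CPM in Light and 1452, 1479 and 1319 CPM in Dark. It was the highest of all members in every Light library, and it was 2.26-fold higher in Light (log2 1.18 ± 0.08, adjusted p = 3.04e-07). Its listed paralog RPL10B (AT1G26910) read 98.9, 124 and 109.6 CPM in Light and 40.6, 31 and 32.8 CPM in Dark, a 3.19-fold rise (adjusted p = 4.83e-08). AT3G09200, the main gene for RPP0, which carries the acidic stalk where translation factors bind, read 2024, 2298 and 2114 CPM in Light and 751, 669.8 and 651 CPM in Dark, 3.11-fold higher (adjusted p = 1.14e-08). The minor RPP0 gene AT2G40010, with 533 reads the least covered member, read 7.37, 8.97 and 7.38 CPM in Light and 3.68, 3.94 and 6.98 CPM in Dark (1.62-fold, adjusted p = 0.0177), and it did not pass without Dark replicate 1, without Light replicate 2 or with clusters past the gene end left out.

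Among the largest rises of the large subunit were 3 genes whose families have no other gene among the 48. AT1G09590, of the RPL21 family, read 133, 139 and 143 CPM in Light and 32.7, 25 and 30.8 CPM in Dark, 4.70-fold higher (log2 2.23 ± 0.12, adjusted p = 1.29e-09). AT1G70600, of the RPL27a family, read 954, 964 and 958 CPM in Light and 248, 203 and 200.4 CPM in Dark, 4.41-fold higher (adjusted p = 1.15e-09). RPL18 (AT3G05590) read 1140.1, 1245 and 1276 CPM in Light and 337, 293 and 297 CPM in Dark, 3.95-fold higher (adjusted p = 1.62e-09). In these 3 genes the lowest Light library was more than 3 times the highest Dark library, and the Light values of AT1G70600 lay closest together relative to their mean.

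Of the RPL14 pair, AT2G20450 read 255, 277 and 327 CPM in Light and 73.4, 50.8 and 60.0 CPM in Dark, 4.66-fold higher (adjusted p = 7.33e-09), whereas AT4G27090 read 883, 919 and 804 CPM in Light and 981, 769.6 and 841 CPM in Dark, overlapping between the groups (log2 0.01, adjusted p = 0.952). The RPL4 protein lines the exit tunnel of the nascent chain. Its gene AT5G02870 read 862, 901 and 829.6 CPM in Light and 258, 263 and 243 CPM in Dark, 3.39-fold higher (adjusted p = 2.51e-09), and AT3G09630 read 1223, 1285 and 1091 CPM in Light and 1250.4, 975 and 1031 CPM in Dark, again overlapping (log2 0.14, adjusted p = 0.293). BBC1 (AT3G49010), an RPL13 gene, read 211, 233 and 211 CPM in Light and 73, 63.7 and 64.2 CPM in Dark, 3.26-fold higher (adjusted p = 5.79e-09), and its paralog AT5G23900 read 634, 747 and 701 CPM in Light and 979.6, 803 and 855 CPM in Dark, 1.27-fold lower (log2 -0.34, adjusted p = 0.0152), which was lost without Light replicate 1 (log2 -0.28) and turned to 0.11 with library totals. In each of these 3 pairs the gene called higher with TMM was the weaker one in Dark.

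RPL24A (AT2G36620) read 251, 282 and 335 CPM in Light and 90.4, 75.6 and 86.5 CPM in Dark, 3.44-fold higher (adjusted p = 1.78e-08). Its paralog STV1 (AT3G53020), or RPL24B, which is known to help ribosomes start again after short upstream reading frames, read 453, 463 and 404 CPM in Light and 415, 324 and 354 CPM in Dark, with overlapping groups. Its difference of 1.21-fold barely passed (adjusted p = 0.0468), and it was lost with DESeq2, without the filter on low counts and when any of 4 single libraries was left out. The RPL23a genes, whose protein stands at the mouth of the exit tunnel, rose together, with RPL23AA (AT2G39460) at 287, 289.5 and 298 CPM in Light and 97.6, 90.9 and 81.2 CPM in Dark and RPL23AB (AT3G55280) at 264, 277 and 246 CPM in Light and 81.5, 71.8 and 69.7 CPM in Dark. The differences were 3.24-fold and 3.53-fold (adjusted p = 5.64e-09 and 3.44e-09).

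The RPL5 genes, whose protein escorts the small 5S ribosomal RNA into the subunit, also rose together. ATL5 (AT3G25520), the RPL5A gene, read 301, 319.8 and 311 CPM in Light and 198, 139.5 and 138 CPM in Dark (1.96-fold, adjusted p = 1.78e-05), and RPL5B (AT5G39740) read 604, 590.4 and 705 CPM in Light and 296, 244 and 264 CPM in Dark (2.36-fold, adjusted p = 2.93e-07). Of the RPL15 pair, AT4G17390 read 493, 512 and 471 CPM in Light and 189, 142 and 162 CPM in Dark (3.00-fold, adjusted p = 3.27e-08) and AT4G16720 read 537, 535 and 548 CPM in Light and 304, 246 and 262 CPM in Dark (1.99-fold, adjusted p = 1.48e-06). EMB2296 (AT2G18020), an embryo-essential RPL8 gene whose protein lies close to the peptidyl transferase centre, read 649, 656 and 688 CPM in Light and 281, 305 and 281 CPM in Dark, 2.30-fold higher (adjusted p = 9.62e-08). PGY1 (AT2G27530), the RPL10a gene known from leaf polarity mutants, and the RPL28 gene AT2G19730 were 1.74-fold and 2.08-fold higher.

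Besides AT4G27090 and AT3G09630, 4 large-subunit genes did not pass. RP1 (AT1G43170), the main gene of RPL3, a protein that reaches into the peptidyl transferase centre, read 808, 799 and 801 CPM in Light and 976, 909.8 and 905 CPM in Dark (log2 -0.21, adjusted p = 0.0675), with all Light libraries below all Dark libraries, and it was called lower with DESeq2. AT2G37190, an RPL12 gene of the stalk base, read 271, 288 and 274 CPM in Light and 349, 227 and 265 CPM in Dark (adjusted p = 0.921), and Dark replicate 1 alone lay above the Light libraries. The embryo-essential RPL19 gene emb2386 (AT1G02780) read 438, 416 and 397 CPM in Light and 399, 391 and 366 CPM in Dark (adjusted p = 0.32). AT3G53740, of the RPL36 family, read 431, 445 and 432 CPM in Light and 417, 355 and 376 CPM in Dark (adjusted p = 0.117), and its Light libraries lay just above its Dark libraries. None of these 4 passed the test with TMM, although the groups did not overlap in RP1 and AT3G53740. All 4 were called higher in Light by edgeR with library totals. Their log2 changes were then 0.24 for RP1 (adjusted p = 0.0427) and 0.43 for AT2G37190 (adjusted p = 0.0203). For emb2386 the value was 0.57 (adjusted p = 1.56e-04) and for AT3G53740 0.64 (adjusted p = 1.31e-04). AT3G09630 (log2 0.59, adjusted p = 8.69e-04) and AT4G27090 (log2 0.46, adjusted p = 0.0043) were then called higher too.

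Whether paralogs kept their balance was examined in the 14 families with more than 1 listed gene, as the share of the listed paralogs' reads held by the most abundant of them. In 11 families this share was lower in all 3 Light libraries than in all 3 Dark libraries, in 1 it was higher, and in 2 the groups overlapped. Over all 79 families of listed ribosomal protein genes with more than 1 tested paralog, the share did not overlap in 87.3%, and it was lower in Light without overlap in 54.4%, so a shifted balance was common in both sets. With 3 libraries a group, the exact permutation test gives p = 0.1 at best for any single family.

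The widest shifts were in RPS3 and RPS6. AT5G35530 held 39.6, 36.3 and 39.1% in Light and 69.5, 64.9 and 67.2% in Dark of the RPS3 reads, and it remained the most abundant RPS3 gene in each library. EMB3010 held 57.2, 58.8 and 58.4% in Light and 85.6, 85.8 and 86% in Dark of the RPS6 reads, a change of -27.6 percentage points with very little spread. AT3G09630 held 58.7, 58.8 and 56.8% in Light and 82.9, 78.8 and 80.9% in Dark of the RPL4 reads. Shares of a family sum to a whole, so a lower share of these genes is by construction a larger share of the other paralogs. The families were thus more evenly split in Light. A lower share need not be a lower level: the level of AT3G09630 overlapped between the groups (log2 0.14).

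Similar shifts were measured in RPS18, where RPS18C held 59.6, 59.9 and 62% in Light and 79.8, 83.6 and 82.4% in Dark, and in RPL24, where STV1 held 64.3, 62.2 and 54.7% in Light and 82.1, 81.1 and 80.3% in Dark. AT4G27090 held 77.6, 76.9 and 71.1% in Light and 93, 93.8 and 93.3% in Dark of the RPL14 reads. AT5G23900 held 75, 76.3 and 76.9% in Light and 93.1, 92.6 and 93% in Dark of the RPL13 reads. In none of these 4 families did a Light library reach the range of the Dark libraries, and within the Light groups STV1 and AT4G27090 were lowest in replicate 3.

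In the other families the balance moved less. AT4G16720 went from a mean of 62.3% to 52.3% of the RPL15 reads, P40 from 97.8% to 90.9% of the RPSA reads, and SAC52 from 97.6% to 96.7% of the reads of the listed RPL10 pair. AT3G09200 held over 98% of the reads of the listed RPP0 pair in every library and was the case of a higher share in Light. With all 3 RPP0 paralogs counted, its mean share was 97.7% in Light and 97.0% in Dark. RPL5B and RPL23AA overlapped between the groups, with exact p = 0.2 and p = 0.3. The RPL10 result depends on which genes are counted: with SAG24 (AT1G66580), another RPL10 gene that is not among the 48, the share of SAC52 rose from 56.1% to 70.1%. Reads of near-identical paralogs could be divided between them by the alignment, so a share between very similar genes is uncertain to that extent.

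**Figure D2:**
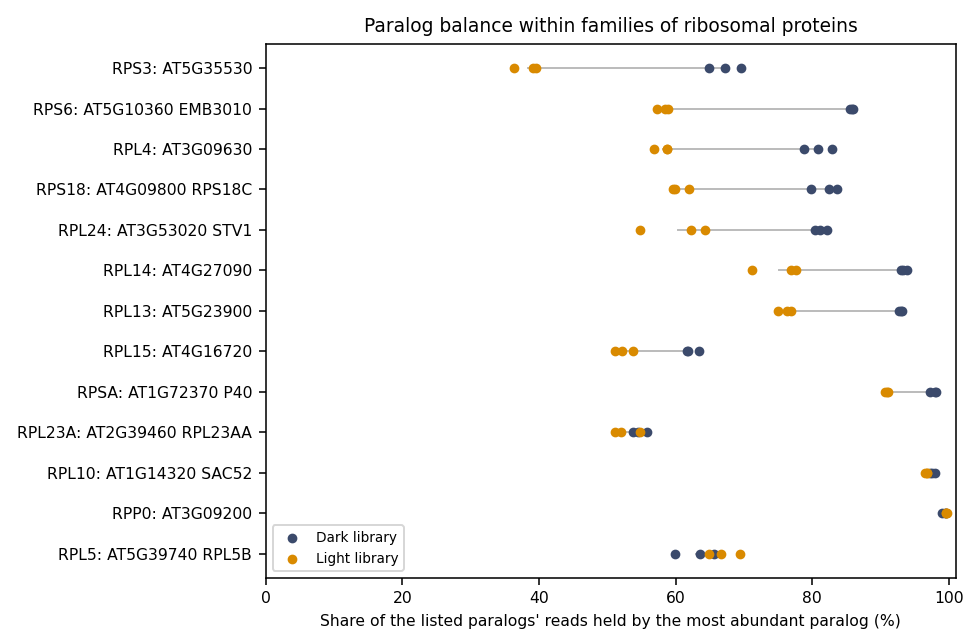
Share of the reads of the listed paralogs that the most abundant one held, in percent, for 13 of the 14 families with more than 1 listed gene; orange points are the 3 Light libraries, dark blue points the 3 Dark libraries, and grey lines join the group means. RPS3 and RPS6 moved farthest, by -28.9 and -27.6 percentage points, and the groups overlap in RPL23A and RPL5.

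Summed over all paralogs of a family, listed members or not, the 32 families varied less than the single genes. A sum averages over its paralogs, so a narrower spread can follow from the summing alone. The log2 ratio of the family sums, Light over Dark, had an SD of 0.55 and ran from -0.16 to 1.75, against an SD of 0.87 and a range from -0.66 to 3.11 over the members. All Light libraries lay above all Dark libraries in 26 families and below in 1, RPL3, and 5 overlapped. With library totals in place of TMM, the Light libraries lay above the Dark libraries in all 32 families, so the direction of RPL3 and of the 5 overlapping families turned on the scaling. The RPL23a family rose most, from 164 ± 14.1 to 554 ± 11.3 CPM (SD, n = 3 each), followed by RPL27a, from 392 ± 38.4 to 1287 ± 32.1 CPM. The RPL10 family was the most abundant, from 2522 ± 125 to 4569 ± 199 CPM. The RPS3 family, in which 1 gene fell and 2 rose, read 958 ± 99.1 CPM in Dark and 1069.7 ± 45.5 CPM in Light.

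The 3' ends of the members were compact. Together they held 532 clusters, 5 to 21 per gene with a median of 10, but most clusters held few reads. When clusters with at least 5% of a gene's reads were counted as sites, 42 of the 48 had more than 1, and their outermost sites lay a median of 48.5 nt apart. The other 6 genes ended at 1 site, which held 89.6 to 97.4% of their reads. Among them were AT3G04840, AT3G09630, AT2G19730 and both RPL24 genes. Cluster positions are printed as deposited (TAIR10), and the strand was inferred from the reads. The annotation at hand gives gene spans only, so exons and untranslated regions could not be marked.

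Site usage within a gene was called changed in 16 of the 42 (38.1%) by edgeR's test of differential usage, with Simes p-values per gene adjusted over all 11074 genes with more than 1 site. The background was 25.7%, and 78.9% of the genes called in all had a mean end position farther downstream in Light. Among the 16 members, the mean end moved downstream in 14 and upstream in 2. Over all 42 members the mean end lay downstream in all Light libraries for 25 and upstream for 6, against 35.4% and 11.6% of all genes with more than 1 site. The shifts were short, from -3.01 to 14.5 nt. RPL10B was the one member whose most used site differed between the groups, and its usage was not called (adjusted p = 0.0733).

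Large changes of share among the called genes were these. In BBC1, on the minus strand of chromosome 3, the distal site at 18166787 took 20.1, 21.4 and 21.7% of its site reads in Light and 8.19, 6.98 and 6.36% in Dark (adjusted p of the gene = 4.17e-08). In AT3G53740, also on the minus strand of chromosome 3, the proximal site at 19913788 took 13.8, 14.1 and 12.7% of its site reads in Light and 27.8, 28 and 29.4% in Dark (adjusted p = 7.08e-07), the remainder ending 37 nt downstream at 19913751. In both, the groups were far apart, and share moved from a main or upstream site to the one beyond it. AT3G53740 was one of the genes whose level did not pass with TMM, although it passed with library totals.

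In AT2G20450, on the plus strand of chromosome 2, the distal site at 8815250 took 28.6, 28.3 and 29.7% of its site reads in Light and 15.4, 14.4 and 14.2% in Dark (adjusted p = 2.37e-04). In RPS18C, on the plus strand of chromosome 4, the distal of its 2 sites, at 6175151, took 68.9, 70.0 and 68.8% of its site reads in Light and 57.1, 58.3 and 56.2% in Dark (adjusted p = 0.00915). The call on RPS18C was lost without Dark replicate 3 or Light replicate 2. Both genes used the distal site more in every Light library than in any Dark library.

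Several other genes showed a smaller exchange with the same direction. RP1, on the plus strand of chromosome 1, ended at its most distal site, 16268838, in 3.63% of its Dark site reads and in 9.24% of its Light site reads (adjusted p = 5.40e-09). EMB3010, on the minus strand of chromosome 5, used its distal site at 3258544 for 5.36% in Dark and 12.4% in Light (adjusted p = 3.91e-07). RPS15A, on the minus strand of chromosome 1, went from 6.32% to 12.8% at 2408228 (adjusted p = 5.32e-06). These 3 genes did not pass edgeR's test on levels with TMM. At that setting their site usage was called without a called change in level. RP1 and RPS15A were called higher in Light by edgeR with library totals (adjusted p = 0.0427 and 0.00384). DESeq2 called RP1 and EMB3010 lower (adjusted p = 0.0383 and 0.0467).

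The RPL15 pair moved alike: the most distal sites, 9714213 in AT4G17390 and 9399960 in AT4G16720, both on the minus strand of chromosome 4, went from 3.64% to 8.86% and from 6.82% to 11.2% (adjusted p = 6.33e-06 and 2.66e-04). When only clusters with at least 10% of a gene's reads were counted as sites, the calls on RP1, AT4G17390 and AT4G16720 were lost (adjusted p = 0.462, 0.18 and 0.0595). On chromosome 2, the RPS3 gene AT2G31610 went from 11.1% to 18.6% at 13451899 (adjusted p = 2.29e-04), and AT2G37190 from 7.73% to 14.7% at 15619370 (adjusted p = 9.13e-05). EMB2296 went from 3.25% to 5.97% at 7838310 (adjusted p = 7.74e-05), and AT2G41840 from 61.7% to 71.8% at 17459804 (adjusted p = 3.17e-04). All are the distal-most site of their gene.

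The 2 genes whose mean end moved upstream did so through middle sites. RPS10B, on the minus strand of chromosome 5, lost share at its central site 16609218, from 83.5% to 70.5%, and gained on both sides, at 16609245 and 16609192 (adjusted p = 5.04e-06). AT3G09200, on the minus strand of chromosome 3, lost share at 2823217, from 32.5% to 23.9% (adjusted p = 0.0259). In both, the mean end position of the Light libraries overlapped that of the Dark libraries, and the call on AT3G09200 was lost without Dark replicate 3, Light replicate 1 or Light replicate 2. AT2G40010 had the widest shift of all 42, 14.5 nt, but its usage was not called (adjusted p = 0.0633), and it was called without Dark replicate 1, Dark replicate 2 or Light replicate 3. RPS6 was called without Dark replicate 1.

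**Figure D3:**
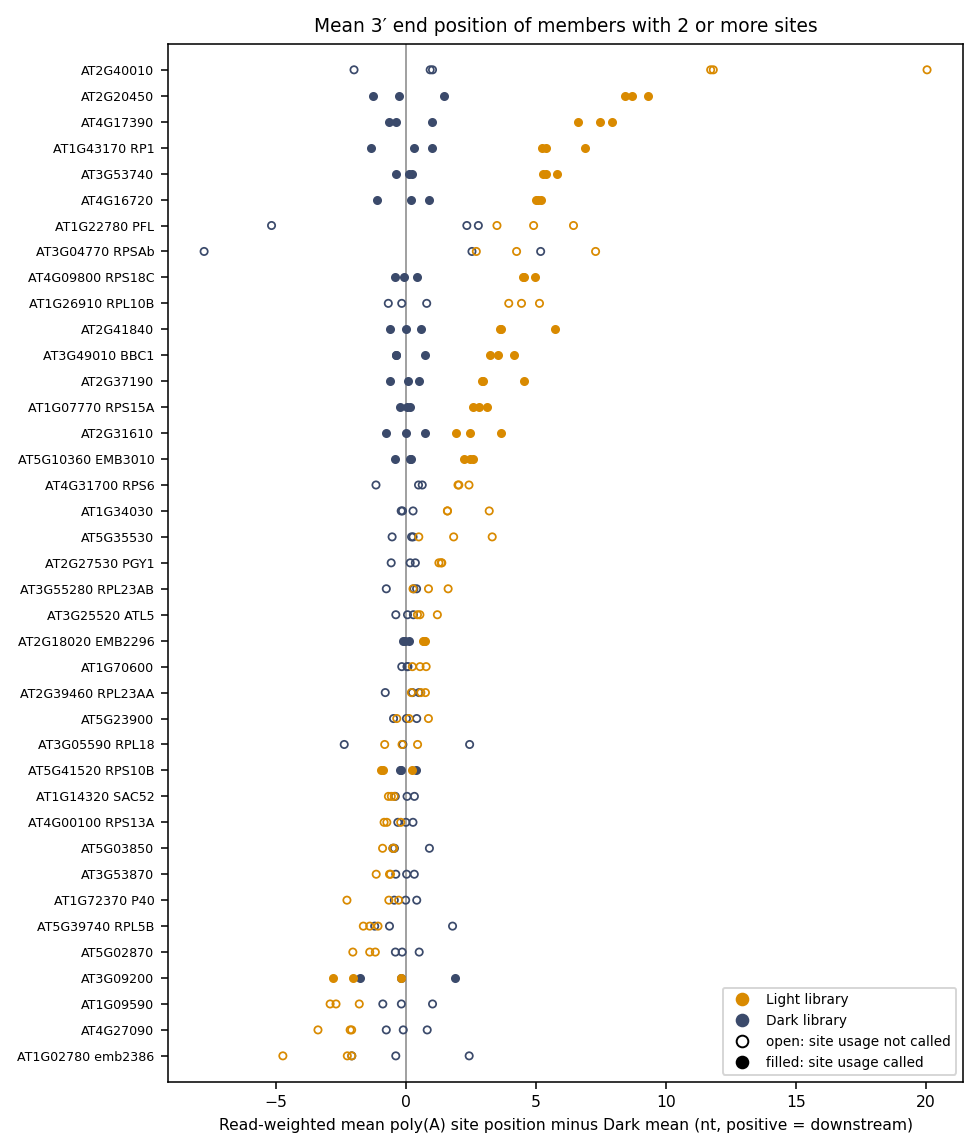
Mean 3' end position of 39 of the 42 members with more than 1 site, weighted by reads, as the difference in nt from the mean of the Dark libraries, with positive values farther downstream; orange points are Light libraries, dark blue points Dark libraries, filled where site usage was called and open where it was not. Of the 15 filled genes, 13 lie to the right in Light, by at most 8.83 nt.

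Most of the other cytosolic ribosomal protein genes were higher as well. Of 178 listed, 164 were tested, and 133 were higher, 14 lower and 17 not called, with a median log2 change of 1.12. The share higher was 81.1%, against 37.4% of all genes tested. With library totals 146 (89.0%) were higher and 5 lower, and 51.4% of all genes were higher. Among those that rose, AT1G23410, of the RPS27a family, and AT2G32220, of the RPL27 family, were 7.01-fold and 6.74-fold higher.

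Most genes that assemble ribosomes in the nucleolus were higher. Of 30, 28 (93.3%) were higher, against 37.4% of all genes tested, 1 was lower and 1 not called. Their median log2 change was 1.57. FIB2 (AT4G25630), a fibrillarin that methylates ribosomal RNA, rose 18.7-fold, from 3.65 ± 1.21 to 68.3 ± 3.33 CPM (adjusted p = 1.56e-10). Its partners in the same particle, NOP56 (AT1G56110) and AT5G27120, rose 7.06-fold and 7.02-fold. AT4G31420, a homologue of a yeast factor of late 60S maturation, fell 5.71-fold (adjusted p = 1.52e-09).

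Translation factors were mixed. Of 11 elongation factor genes, 4 were higher and 5 lower, among them AT5G60390, an eEF1A gene that rose 2.11-fold to 4158 ± 358 CPM, AT5G12110, which rose 6.79-fold, and AT1G09640 and eEF-1Bb1 (AT1G30230), which fell 1.92-fold and 1.67-fold. Of 21 initiation factor genes, 11 were higher and 6 lower, with eIFiso4G2 (AT2G24050) 5.79-fold and EIF4E (AT4G18040) 2.45-fold higher and TIF3H1 (AT1G10840) 2.69-fold and EIF4A1 (AT3G13920) 2.23-fold lower. With library totals the counts were 6 higher and 3 lower for elongation and 15 higher and 4 lower for initiation factors. With TMM, 36.4% of elongation and 52.4% of initiation factor genes were higher, against 37.4% of all genes tested. The shares lower were 45.5% and 28.6%, against 35.6%. With library totals, 54.5% and 71.4% were higher, against 51.4% of all genes, so elongation factors stood near the background at both settings.

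Of 6 tested genes of the TOR pathway, which promotes ribosome synthesis, 1 (16.7%) was higher and 4 (66.7%) lower. Over all genes tested 37.4% were higher and 35.6% lower. With library totals 2 of the 6 were higher and 2 lower, and their median log2 change went from -0.62 to -0.16. TOR (AT1G50030) itself fell from 162 ± 8.77 to 71.9 ± 2.25 CPM (adjusted p = 1.33e-07), and S6K2 (AT3G08720), an S6 kinase, fell 4.06-fold. The other listed S6 kinase gene, PK1 (AT3G08730), had 19248 reads over the 6 libraries against 1655 for S6K2 and was not called lower. The log2 changes of the tested genes of this list ran from -2.02 to 1.79. Among them RAPTOR2 (AT5G01770) had the fewest reads, 84. LST8-1 (AT3G18140) and RAPTOR1 (AT3G08850) were 1.70-fold and 1.39-fold lower, but with library totals neither passed (adjusted p = 0.101 and 0.922). TCP factors and telobox-binding proteins are families known to bind ribosomal protein promoters. Of 7 tested genes for them, 2 (28.6%) were higher and 3 (42.9%) lower, against 37.4% and 35.6% of all genes tested. With library totals 4 were higher and 1 lower. TBP1 (AT5G13820) fell 3.20-fold and AT5G08330, a TCP gene, rose 1.47-fold, while TCP14 (AT3G47620) and TCP15 (AT1G69690) were 1.38-fold and 1.39-fold lower and lost the call with library totals.

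**Figure D4:**
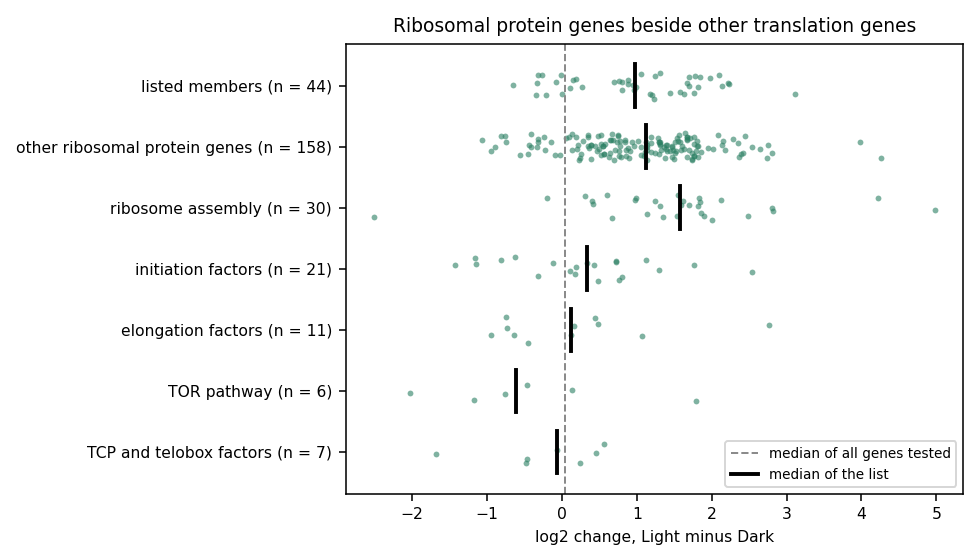
Change of tested genes (44 of the 48 members, 158 of the 164 other ribosomal protein genes and all of the other lists), as log2 of Light minus log2 of Dark, for the ribosomal protein genes and 5 other lists, with 1 point per gene spread vertically at random, a black bar at the median of each whole list and a dashed line at the median of all genes tested, 0.04. The medians are 0.98 for the members, 1.12 for the other ribosomal protein genes, 1.57 for ribosome assembly and -0.62 for the TOR pathway (-0.16 with library totals); with library totals the median of all genes lies 0.45 farther right.

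Markers of cell types stand beside all genes tested, of which 37.4% were higher, 35.6% lower and 72.9% changed in either direction. Of the tested markers, 75% were higher for dividing cells and 100% for mesophyll. The share was 50% for root, 33.3% for epidermis and guard cells and 40% for vascular markers, nearer that of all genes. All these lists are small, with 4 tested genes each for mesophyll and root. Of 12 tested genes of dividing cells and meristems, out of 15 listed, 9 were higher and 1 lower, and their summed level was 109.9 to 135.1 CPM in Light and 43.5 to 58.4 CPM in Dark. Among them MCM5 (AT2G07690), of the replicative helicase, rose 11.6-fold, CYCD3;3 (AT3G50070) 5.46-fold and ANT (AT4G37750) 3.26-fold, and the meristem gene STM (AT1G62360) fell 1.92-fold. The 4 mesophyll markers were all higher, at a summed 8302 to 9888 CPM against 2860 to 3768 CPM, including CAB3 (AT1G29910), a light-harvesting gene, at 42-fold, RCA (AT2G39730) at 7.30-fold, CA1 (AT3G01500) at 2.67-fold and RBCS1A (AT1G67090) at 2.60-fold. RBCS1A made up most of this sum, at 7757 to 9297 CPM in Light and 2789 to 3706 CPM in Dark.

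Root markers counted 2 higher of 4 tested, led by PYK10 (AT3G09260), a root beta-glucosidase, at 4.41-fold, with SHR (AT4G37650) at 1.71-fold, and summed to 6618 to 7786 CPM in Light and 1118 to 2046 CPM in Dark. This sum is nearly that of PYK10 alone, at 6596 to 7761 CPM in Light and 1101 to 2023 CPM in Dark. The other 2 tested root markers were not called, and the lowest log2 change of the list was -0.90. Epidermis and guard cell markers counted 2 higher and 1 lower of 6, with KCS6 (AT1G68530) and PDF1 (AT2G42840) 1.79-fold and 1.67-fold higher and ATML1 (AT4G21750) 1.47-fold lower (adjusted p = 0.432 with library totals), and summed to 818 to 908 CPM against 415 to 649 CPM. KCS6 made up most of this sum, at 733 to 814 CPM in Light and 319 to 578 CPM in Dark. Vascular markers counted 2 higher and 1 lower of 5 and summed to 14.7 to 17.9 CPM against 9.54 to 12.7 CPM. PLT2, SHV2, PRP3 and EXPA7 had too few reads to settle a strand, CYCD3;1 had reads on both strands, and CYCB1;1, WOX5 and VND7 fell below the filter on low counts. The part of such shifts in the change of the ribosomal protein genes was not tested.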

How the data were processed

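The authors deposited raw, unnormalized counts of reads per library for 217870 poly(A) site clusters with their genome positions. Bowtie2 and the TAIR10 build appear in the submitters' processing notes without roles or versions; the clustering rule was not given in the sources at hand.

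Assignment to 27444 protein-coding genes used RefSeq spans (assembly TAIR10.1). The strand of a gene was inferred from its reads (at least 20 reads, 90% or more on 1 strand), and its reads were summed from inside its span to 200 nt past the 3' end. Clusters that fit more than 1 gene, or lay within 50 nt of a small RNA gene, were left out. All 48 members were resolved.

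Counts per gene were tested with edgeR 4.0.16 in R 4.3.3 (TMM scaling, filterByExpr with a minimum count of 10, quasi-likelihood F-test on all 6 libraries, Benjamini-Hochberg over the 16773 genes tested, adjusted p below 0.05). Site usage was tested with diffSpliceDGE on clusters with at least 5% of their gene's reads and Simes p-values per gene. The biological coefficient of variation was 0.126. The steps were tested on simulated counts in which most genes were left unchanged. In the data themselves most genes moved, so the simulation does not test the choice of scaling. Alternatives were DESeq2 1.42.0, library totals, no filter, 0 or 500 nt past the gene end, other site minimums, sites merged within 24 nt, each replicate left out and the replicate number as a block.

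The labels gave the groups. The members and the gene lists were chosen with earlier results of these data known. Apart from 4 members that the rule names and that are not reported here, named with their own values were the 10 members with the largest called changes, the 4 most abundant, every member lower or not called, every member of a family with more than 1 listed gene and every member with called site usage, and up to 4 genes of each other list. Counts cover all 48 members; some other ribosomal protein genes were left out in the same way. PK1 and RAPTOR2 are named besides these, for their reads beside those of the other genes of their list. No sequences were analysed here.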

Additional observations from a re-analysis of the deposited data

How the results depend on the processing

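The count of members higher in Light stayed between 33 and 35 when single libraries were left out, and was 34 with DESeq2, without the filter on low counts and with no clusters past the gene end. Of all genes tested, 34.6 to 36.8% were higher when single libraries were left out, and 33.5% with DESeq2. The count of members lower in Light ran from 1 to 5 when single libraries were left out and was 0 with library totals only, by edgeR, where 43 were higher and none of the 4 lower members passed (0 were lower at an unadjusted p below 0.05); DESeq2 gave 6. With library totals, the log2 change of 6 of the members reported took the other sign: RP1 (AT1G43170) 0.24, AT2G37190 0.43, AT5G23900 0.11, AT2G41840 0.13, RPS15A (AT1G07770) 0.38 and RPS18C (AT4G09800) 0.12. This follows from the scaling, which moves all genes by about 0.45. Site usage was called in 31 of 48 members (64.6%) when sites with at least 1% of a gene's reads were counted. More sites and genes are tested at that minimum, and 31.7% of all genes tested for site usage were called. At 10%, 10 of 36 members (27.8%) were called, against 20.9% of all genes. When single libraries were left out, 13 to 19 members (31.7 to 44.2%) were called, against 17.5 to 24.9% of all genes. The share of SAC52 (AT1G14320) rose by 13.9 percentage points when all RPL10 paralogs were counted, against a fall of 0.943 points among the listed pair. The 2.01-point difference in the members' share of reads stayed between 1.94 and 2.12 points when single libraries were left out.

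With the replicate number as a block, 35 members were higher, 4 lower and 17 called for site usage, RPS6 (AT4G31700) being the addition (adjusted p = 0.0446, edgeR). Of all genes tested at that setting, 37.0% were higher, and 24.5% of those with more than 1 site were called for site usage. The deviations of same-numbered Light and Dark libraries correlated by 0.051, 0.0056 and 0.056, and those of differently numbered libraries by -0.056 to 0.0089. Light replicates 1 and 3 correlated best with the Dark library of the same number, and Light replicate 2 with Dark replicate 1 (0.0074). All these values are small, so whether the libraries were paired cannot be settled from them. Among members, the least covered genes, AT2G40010 with 533 reads and PFL (AT1G22780) with 920, limit the statements on their paralog and site shares.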
